A study of Homo sapiens with 30 samples.

Results

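The genes of the proteasome were followed in A549 cells, a human line established from a lung adenocarcinoma, through a magnetic exposure, a knockout of RSRP1 and the conditions labelled iR and D3. Members were the protein-coding rows whose symbol starts with PSMA to PSMG followed by a number, together with POMP. This rule found 50 of the 26801 genes in the deposited table, 17648 of which are protein-coding. Of the 50, 48 reached at least 1 FPKM (fragment counts divided by transcript length and by library size) in at least 3 libraries and were tested. PSMB11, the thymus-restricted catalytic subunit, was listed at 0 in 26 libraries and had 1 read in each of the other 4. PSMG4, an assembly chaperone, lay between 0.496 and 0.961 FPKM, with at least 188 reads in each library, and was not tested. Of the tested rows, 46 are proteasome components, regulators or assembly chaperones. PSMC3IP, a meiotic recombination factor, and PSME3IP1, an interactor of PSME3, match the rule by their symbols but are not proteasome components.

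The 30 libraries form 10 groups of 3. Knockout cells are labelled KOA and wild-type cells WTA, exposed libraries EX (a magnetic exposure labelled 2 H) and unexposed libraries NE. Each of 5 backgrounds has an exposed and an unexposed group: KOA, iR_KOA, iR_KOA_D3, iR_WTA and iR_WTA_D3. What iR and D3 stand for, and whether the knockout is a single clone, is not stated in these sources, and wild-type cells without iR were not analysed here. No label says whether replicates grew as separate cultures, and the p-values therefore reflect only how much these libraries vary, possibly for technical reasons. In bulk RNA, fewer cells of a kind and less RNA per cell cannot be told apart.

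The 26S proteasome degrades proteins tagged with ubiquitin. Its barrel, the 20S core, stacks rings of alpha subunits around rings of beta subunits, and PSMB5, PSMB6 and PSMB7 carry the proteolytic sites, which interferon can have replaced by PSMB8, PSMB9 and PSMB10 to form the immunoproteasome. The 19S regulatory particle binds, unfolds and feeds in the substrate through a ring of ATPases (PSMC1 to PSMC6), and separate activators (PSME1 to PSME4) can cap the core instead. When proteasome activity is short, the membrane-bound factor NFE2L1 is released and raises proteasome genes together through antioxidant response elements in their promoters.

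Recovered reads per library ran from 34620432 to 38939336, a ratio of 1.125, and a tested member had between 115 and 13162 reads in a library. RSRP1 checked the labels: it lay between 2.09 and 7.95 FPKM in the knockout libraries and between 37.4 and 63.4 FPKM in the wild-type ones. KRT8 (892 to 1395 FPKM), KRT18, AKR1B10 and NQO1 were high, as in A549 cells, while EPCAM was low (0.402 to 1.85 FPKM) and KRT19 ran from 0.0194 to 22.8 FPKM around a median of 0.132. Summed levels of the marker lists reached at most 1.30 FPKM for endothelium, 0.458 to 4.37 FPKM for fibroblasts and 1.09 to 18.1 FPKM for myeloid cells. PTPRC, PECAM1, VWF, COL3A1 and DCN stayed under 0.05 FPKM, whereas COL1A1 (0.443 to 3.71 FPKM) and CD14 (1.05 to 17.9 FPKM) were detected in every library. Mitochondrially encoded transcripts took 20.1% to 30.8% of the summed FPKM. Their share was low in iR_WTA_NE (20.1% to 22.2%) and iR_WTA_EX (20.5% to 21.5%) and highest in iR_KOA_D3_NE (28.5% to 30.8%). Its part in the differences below was not tested.

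At the level of single genes (FPKM, a scale per transcript length), the members spanned a wide range. PSMA7 was the most abundant, with a median of 199.8 FPKM over the 30 libraries, followed by PSMB4 at 159.8 and PSMB3 at 149.1. PSMB5, PSMB6 and PSMB7, the standard catalytic subunits, had medians of 115.5, 139.1 and 135.0 FPKM. Their immunoproteasome counterparts were far lower: PSMB8 had a median of 16.9 FPKM, PSMB10 18.1 and PSMB9 4.69. Summed over the 48 proteasome genes (PSMB11 and PSMG4 included, PSMC3IP and PSME3IP1 left out), expression was highest in iR_WTA_NE at 3672 ± 86.0 FPKM (SD, n = 3) and lowest in iR_KOA_D3_EX at 2594 ± 40.7 FPKM (SD, n = 3). The highest group mean fell in iR_WTA_NE for 32 of the 48 tested rows, and the lowest in either iR_KOA_D3 group for 36.

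**Figure D1:**
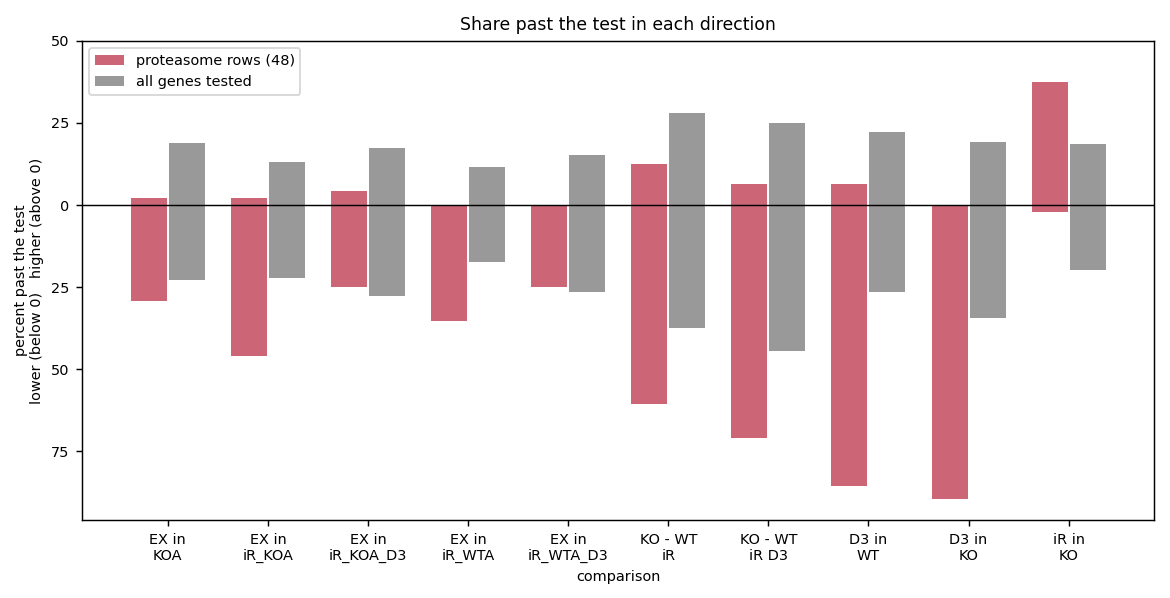
Percentage of the 48 tested proteasome rows (red) and of all 12086 tested genes (grey) that were higher (above 0) or lower (below 0) past the test in each of 10 comparisons; EX is the exposure, KO - WT the knockout minus the wild type. The share of proteasome rows that were lower is 85.4% and 89.6% in the D3 comparisons, against 26.3% and 34.5% of all genes, and in the iR comparison 37.5% of the proteasome rows are higher and 2.08% lower.

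The first question was what the magnetic exposure did to these genes. Differences are exposed minus unexposed on the log2(FPKM + 1) scale, and a gene was called at a Benjamini-Hochberg adjusted p below 0.05 in limma's moderated test over all 12086 genes. In KOA, 1 member rose and 14 fell, when 18.8% of all genes rose and 22.7% fell. In iR_KOA, 1 rose and 22 fell (background 13.1% and 22.3%). With D3, iR_KOA_D3 had 2 that rose and 12 that fell (background 17.3% and 27.8%). In wild-type cells the counts were 0 and 17 for iR_WTA (background 11.4% and 17.2%) and 0 and 12 for iR_WTA_D3 (background 15.3% and 26.5%). At an unadjusted p below 0.05, 1, 2, 4, 0 and 1 members were higher in the same order of backgrounds. Shares of all genes at that unadjusted threshold were not counted. Few members rose in any background: 2.08%, 2.08%, 4.17%, 0% and 0% in that order, against 11.4% to 18.8% of all genes. The members that fell were 29.17%, 45.83%, 25.0%, 35.42% and 25.0%. These shares were slightly below those of all genes in iR_KOA_D3 and iR_WTA_D3 and above them in the other backgrounds. The median member difference was -0.07, -0.13, -0.04, -0.12 and -0.09, beside -0.02, -0.05, -0.04, -0.04 and -0.05 over all genes. Every difference was small, between -0.52 and 0.29 over all 48 genes and 5 backgrounds. Mitochondrial transcripts were 27.2% to 29.7% of FPKM in unexposed and 23.5% to 25.5% in exposed KOA libraries, and exposed iR_KOA replicate 2 stood at 28.3% beside 24.5% and 24.6% in the other two. Their part in these counts was not tested.

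Several of these counts rested on single libraries or on scaling. Without exposed replicate 2 the 22 lower members in iR_KOA became 12, and with only the compared groups in the fit they became 5. The 12 in iR_KOA_D3 became 6 without unexposed replicate 1, and the 17 in iR_WTA became 10 without exposed replicate 1 and 11 without unexposed replicate 3. Median-of-ratios scaling gave 4 higher and 8 lower in iR_KOA_D3 and 1 higher and 8 lower in iR_WTA_D3.

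**Figure D2:**
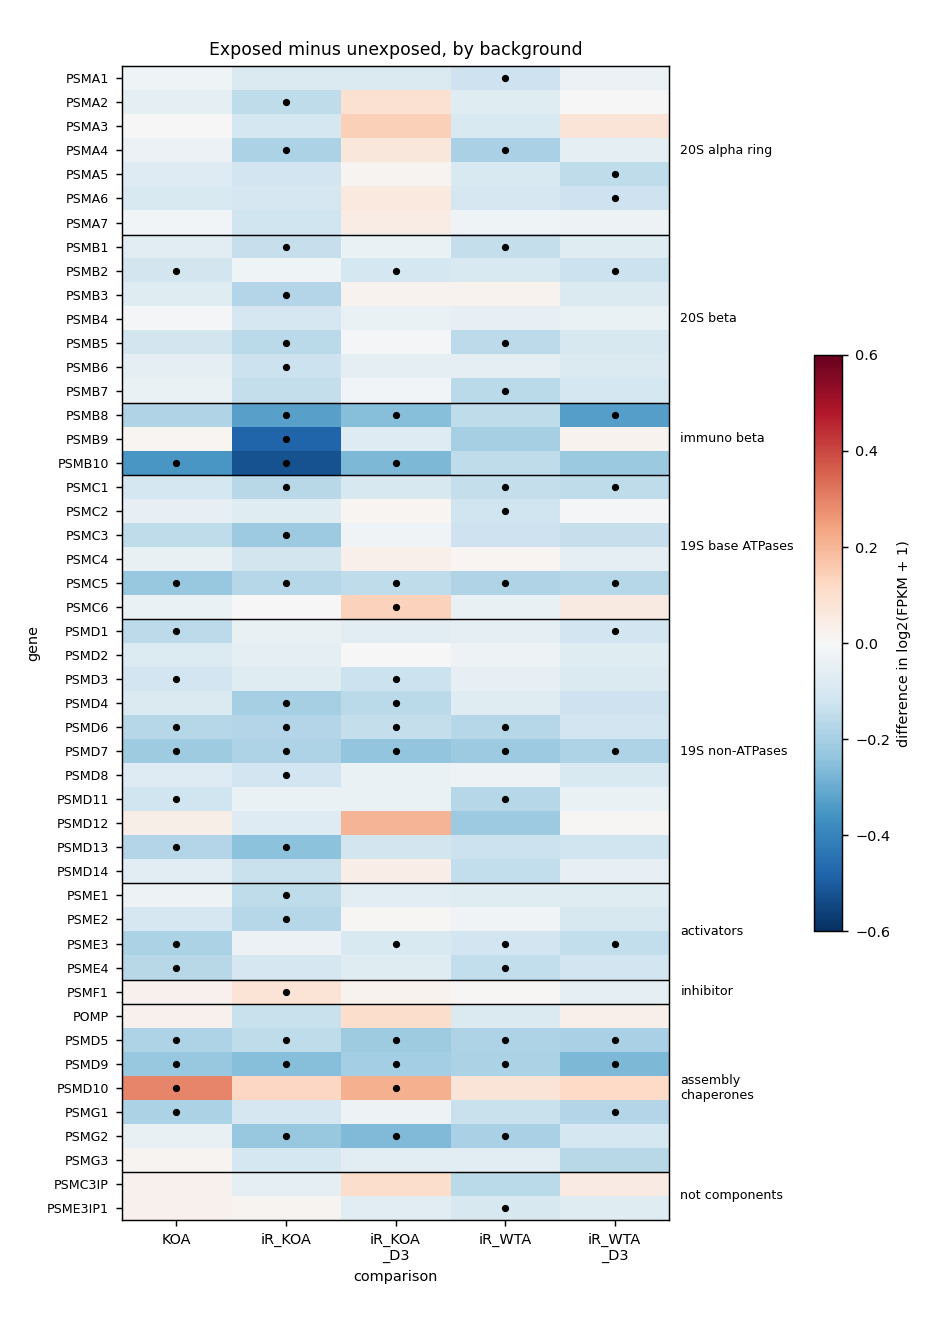
Exposed minus unexposed difference in log2(FPKM + 1) for the 48 tested rows (vertical axis, grouped by role) in 5 backgrounds (horizontal axis); red is higher and blue lower with exposure, and dots mark genes past the test. PSMC5, PSMD5, PSMD7 and PSMD9 carry a dot in all 5 columns, and PSMD10 is the row that is red throughout.

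Of the 14 alpha and standard beta genes of the 20S core, 1 fell in KOA, 6 in iR_KOA, 1 in iR_KOA_D3, 5 in iR_WTA and 3 in iR_WTA_D3, and 0 rose. These falls were 7.14%, 42.86%, 7.14%, 35.71% and 21.43% of the 14, beside the 22.7%, 22.3%, 27.8%, 17.2% and 26.5% of all genes that fell. PSMA4, an alpha subunit, read 59.7, 59.9 and 54.2 FPKM in unexposed iR_KOA and 49.8, 46.9 and 55.2 in exposed iR_KOA. It fell there by 0.19 on the log2 scale (SE 0.05, limma adjusted p = 0.00518), although its libraries overlapped, and the call was lost without exposed replicate 2 and when only those groups were fitted. In iR_WTA it read 56.5, 56.4 and 56.2 FPKM unexposed and 51.6, 48 and 47.9 exposed, with no overlap and a fall of 0.19 (SE 0.05, limma adjusted p = 0.0055). Among the catalytic subunits, PSMB5 fell in iR_KOA (-0.16) and iR_WTA (-0.16), PSMB6 in iR_KOA (-0.13) and PSMB7 in iR_WTA (-0.16). Each of these 4 calls was lost under at least 4 of the 12 alternatives, those in iR_KOA among others without exposed replicate 2 or unexposed replicate 3, and those in iR_WTA without exposed replicate 2 or 3 or unexposed replicate 1 or 3. In KOA the chymotrypsin-like subunit PSMB5 read 115, 117 and 120 FPKM unexposed and 108, 109 and 110 exposed, apart but short of the threshold (limma adjusted p = 0.099). PSMB3, a structural beta subunit, had the largest difference among the standard beta genes, -0.17 in iR_KOA, with 175, 169 and 182 FPKM before and 163, 137 and 166 after exposure; that call was lost without exposed replicate 2 or unexposed replicate 3. PSMA2, another alpha subunit, fell by 0.15 in iR_KOA with overlapping libraries, and 4 of 12 alternatives kept that call.

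The immunoproteasome subunits showed the largest falls. PSMB10, the trypsin-like immuno-subunit, read 22.4, 24.1 and 24.0 FPKM in unexposed KOA and 19.2, 16.2 and 19.4 in exposed KOA. In iR_KOA it read 20.9, 19.7 and 20.1 FPKM unexposed and 14.2, 11.3 and 16.3 exposed. These groups did not overlap, and PSMB10 fell by 0.35 in KOA (SE 0.10, limma adjusted p = 0.00853) and by 0.52 in iR_KOA (SE 0.10, limma adjusted p = 0.00041). In iR_KOA_D3 it fell by 0.27 (limma adjusted p = 0.0362) with overlapping libraries, a call that 6 of the 12 alternatives lost. The estimates in iR_WTA (-0.15) and iR_WTA_D3 (-0.22) did not pass, with limma adjusted p = 0.292 and 0.085. Without exposed replicate 2 the call in KOA was lost (adjusted p = 0.0669). The difference between genotypes in iR was -0.37 (SE 0.15, limma adjusted p = 0.392), so a knockout-specific fall was not shown.

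PSMB8, the chymotrypsin-like immuno-subunit, fell in iR_KOA, iR_KOA_D3 and iR_WTA_D3. In the last of these it read 16.6, 14.9 and 16.3 FPKM unexposed and 12.6, 13.0 and 11.8 exposed, a fall of 0.33 (SE 0.08, limma adjusted p = 0.0011) that held under all 12 alternatives. In iR_KOA_D3 the values were 20.1, 20.6 and 19.8 FPKM unexposed and 15.6, 17.5 and 17.2 exposed, a fall of 0.25 (limma adjusted p = 0.00824) that was lost without exposed replicate 1. In iR_KOA the exposed libraries were spread, at 14.8, 12.5 and 17.7 FPKM against 18.3, 19.1 and 19.1, with a fall of 0.32 (limma adjusted p = 0.00193) that was lost when only those groups were fitted. PSMB8 overlaps the antisense row PSMB8-AS1, which fell in KOA (-0.34), iR_KOA_D3 (-0.30) and iR_WTA (-0.30); the strand setting of the counting is unknown here, so reads of the pair cannot be told apart. PSMB9, the caspase-like site's replacement, was scarce, with 115 reads in its lowest library. It fell in iR_KOA, from 5.40, 6.02 and 5.32 FPKM to 3.94, 3.12 and 4.14 (-0.48, SE 0.13, limma adjusted p = 0.00464), and its estimates in KOA (0.01) and iR_WTA_D3 (0.02) were near 0.

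The ratio of an immuno-subunit to its standard counterpart does not depend on scaling between libraries. PSMB10 over PSMB7 was 0.176 ± 0.0065 in KOA_NE and 0.141 ± 0.010 in KOA_EX, and 0.141 ± 0.0025 in iR_KOA_NE and 0.107 ± 0.0071 in iR_KOA_EX (SD, n = 3 each). In iR_WTA the same ratio was 0.111 ± 0.0015 unexposed and 0.111 ± 0.0066 exposed (SD, n = 3 each). PSMB10 was lower relative to PSMB7 in the exposed knockout libraries without D3, with ratios of 0.129 to 0.148 against 0.169 to 0.182 in KOA, while in iR_WTA and in both D3 backgrounds the ratios overlapped. With D3 it was 0.165 ± 0.024 unexposed and 0.137 ± 0.017 exposed in the knockout, and 0.127 ± 0.0039 and 0.117 ± 0.021 in the wild type (SD, n = 3 each). PSMB8 over PSMB5 was apart in both D3 backgrounds, at 0.209 ± 0.0059 and 0.176 ± 0.017 in iR_KOA_D3 and 0.126 ± 0.0051 and 0.106 ± 0.0056 in iR_WTA_D3 (SD, n = 3 each). In KOA it was 0.168 and 0.159, barely apart, and in iR_KOA (0.163 and 0.144) and iR_WTA (0.0879 and 0.0874) it overlapped. PSMB9 over PSMB6 was lower without overlap in exposed iR_KOA (0.0349 and 0.0254) and iR_WTA (0.0321 and 0.0281), and it overlapped in KOA, iR_KOA_D3 and iR_WTA_D3.

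In the 19S particle, 7, 8, 5, 6 and 4 of the 17 genes fell in KOA, iR_KOA, iR_KOA_D3, iR_WTA and iR_WTA_D3, and 1 rose, PSMC6 in iR_KOA_D3 (0.14). The falls were 41.18%, 47.06%, 29.41%, 35.29% and 23.53% of the 17, against the same shares of all genes as above. PSMC5, an ATPase of the base, fell in every background. It read 96.6, 99.7 and 101 FPKM in unexposed KOA and 83.7, 84.7 and 85.1 in exposed KOA. In iR_KOA the values were 92.4, 91.0 and 97 unexposed and 86.3, 77.8 and 85.0 exposed, and in iR_KOA_D3 they were 70.9, 70.0 and 69.1 and then 63.4, 62.4 and 62.6. In iR_WTA they were 109, 105 and 109 unexposed and 93.3, 95.2 and 95.1 exposed, and in iR_WTA_D3 78.9, 75.8 and 79.3 and then 70.5, 71.7 and 65.7. The exposed libraries lay below the unexposed ones in all 5 backgrounds, with falls between 0.15 and 0.23 (SE 0.04) and limma adjusted p from 1.91e-05 to 0.00124. The only alternative that ended a call was the fit of iR_KOA alone (adjusted p = 0.0703). The annotated span of PSMC5 overlaps FTSJ3, and without the strand setting reads of the pair cannot be told apart.

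PSMD7, a lid subunit that pairs with the deubiquitinase PSMD14, fell by a like amount. Its unexposed and exposed means were 76.8 ± 3.57 and 66.1 ± 0.714 FPKM in KOA, 83.3 ± 1.46 and 73.1 ± 1.17 in iR_KOA, and 71.2 ± 0.897 and 60.4 ± 2.46 in iR_KOA_D3 (SD, n = 3 each). In wild-type cells they were 102 ± 1.65 and 87.7 ± 2.85 FPKM in iR_WTA and 83.6 ± 3.05 and 73.4 ± 0.705 in iR_WTA_D3 (SD, n = 3 each). The libraries were apart in all 5, and each fall (0.19 to 0.23, SE 0.03, limma adjusted p from 5.63e-06 to 0.000188) held under all 12 alternatives. PSMD6, another lid subunit, fell in 4 backgrounds. PSMD13, also of the lid, had the largest difference of the non-ATPase genes, falling by 0.24 in iR_KOA (61.0, 63.0 and 61.2 FPKM to 53.4, 47.9 and 54.8) and by 0.17 in KOA (62.8, 60.7 and 62.8 FPKM to 54.6, 53.5 and 56.7). PSMC3, a base ATPase, fell by 0.22 in iR_KOA, where exposed replicate 2 was lowest at 47.4 FPKM beside 57.9 and 61.5, and the call was lost without that library. PSMD14 itself passed in none of the 5.

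**Figure D3:**
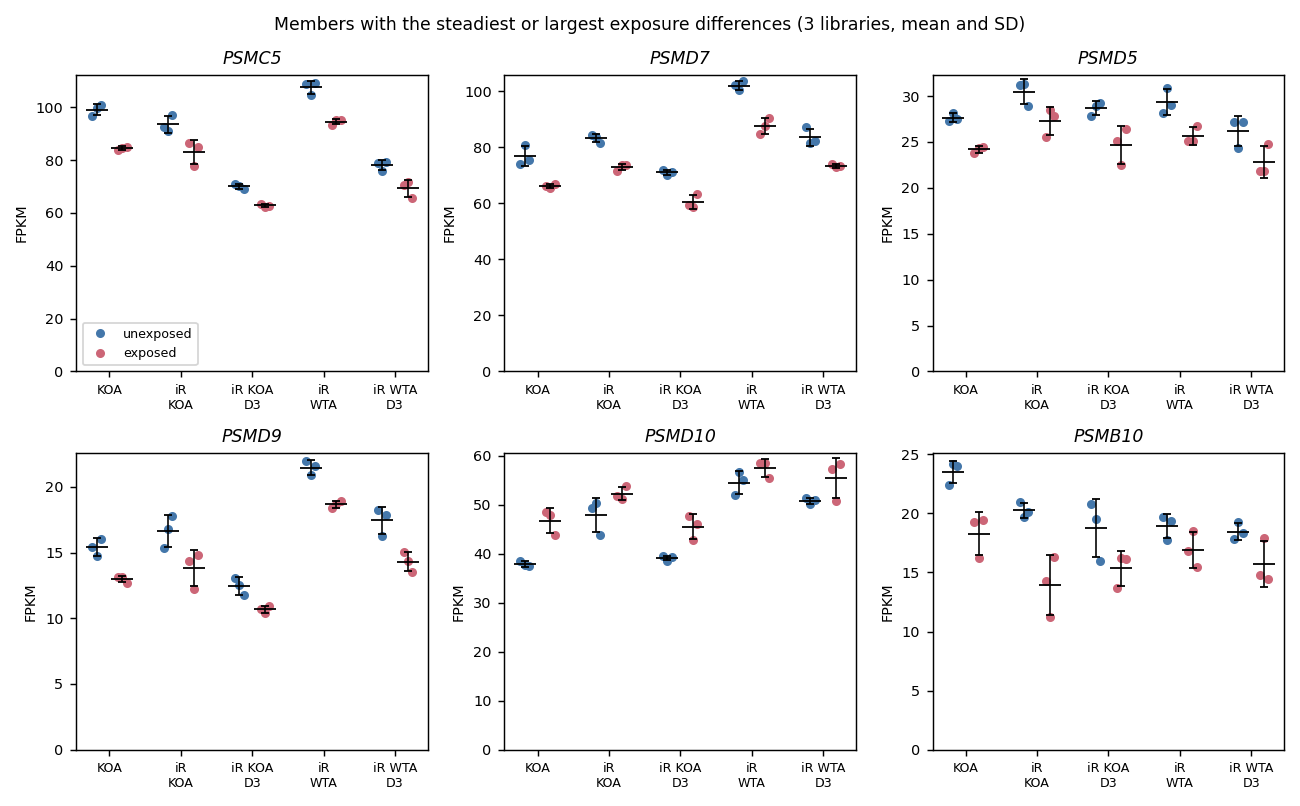
FPKM of 6 members in each library (points), with the group mean and SD (bars), in unexposed (blue) and exposed (red) cells of 5 backgrounds; each vertical axis starts at 0. For PSMC5 and PSMD7 the red points lie below the blue ones in every background, for PSMD10 they lie above in the 3 knockout backgrounds, and for PSMB10 the gap is widest in KOA and iR_KOA.

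Assembly chaperones guide the building of the particle and leave before it is complete. Both PSMD5 and PSMD9, which hold ATPases of the base during assembly, fell in all 5 backgrounds. PSMD9 read 15.5, 14.7 and 16.1 FPKM in unexposed KOA and 13.2, 13.1 and 12.7 in exposed KOA. In iR_WTA_D3 it read 18.2, 16.3 and 17.8 unexposed and 15.0, 14.4 and 13.5 exposed, its largest fall (-0.27, SE 0.06, limma adjusted p = 0.000613). PSMD5 fell by 0.15 to 0.21, for example from 27.3, 28.2 and 27.5 FPKM to 23.8, 24.3 and 24.5 in KOA. Of 12 alternatives, 7 lost the PSMD5 call in iR_KOA, 4 in iR_WTA and 1 in iR_WTA_D3, and 1 and 3 lost the PSMD9 call in iR_KOA and iR_WTA. The libraries whose removal did so were exposed replicate 1 and unexposed replicates 1 and 2 of iR_KOA and exposed replicates 1 and 2 and unexposed replicate 2 of iR_WTA for PSMD5, and exposed and unexposed replicate 1 of iR_WTA for PSMD9. With PSMC5 and PSMD7 these made 4 of 48 members (8.3%) that fell in all 5 backgrounds, and 7.87% of all genes did so, a share near the background. No member rose in all 5, where 5.98% of all genes did.

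PSMD10 (gankyrin), which also chaperones a base ATPase, went the other way. It read 38.5, 37.8 and 37.5 FPKM in unexposed KOA and 48.6, 48 and 43.8 in exposed KOA. In iR_KOA_D3 it read 39.5, 38.6 and 39.4 unexposed and 47.8, 42.8 and 46.2 exposed. It rose in both, by 0.29 (SE 0.05, limma adjusted p = 6.87e-05) and 0.21 (SE 0.05, limma adjusted p = 0.00182), with no overlap and under all 12 alternatives. In iR_KOA the groups were also apart, 49.3, 50.4 and 43.9 FPKM against 51.7, 51.2 and 53.8, but the estimate of 0.13 did not pass (limma adjusted p = 0.0661). The estimates in iR_WTA (0.08) and iR_WTA_D3 (0.12) did not pass and their libraries overlapped. PSMD10 was the 1 gene of 48 with no negative estimate. The share of all genes with none was not counted, and the median difference over all genes was negative in each background. The annotated span of PSMD10 overlaps ATG4A. The remaining chaperones were mixed: PSMG2 fell in 3 backgrounds, PSMG1 in KOA (-0.19) and iR_WTA_D3 (-0.18), and POMP and PSMG3 passed in none.

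Of the alternative caps, PSME3, the nuclear activator, fell in 4 backgrounds. It read 84.0, 83.7 and 80.3 FPKM in unexposed KOA and 71.8, 73.7 and 71.7 in exposed KOA, a fall of 0.19 (SE 0.03, limma adjusted p = 3.86e-05), while in iR_KOA it read 76.7, 77.5 and 81.1 and then 75.6, 77.9 and 76.3, which overlap. Its calls in iR_KOA_D3 and iR_WTA held under 7 of 12 alternatives each; exposed replicate 1 or 3 or unexposed replicate 1 or 3 ended the first, and exposed replicate 1 or unexposed replicate 3 the second. PSME4, a cap found in nuclei, fell in KOA (-0.17) and iR_WTA (-0.15), the latter under 7 of 12 alternatives. PSME1 and PSME2, the interferon-inducible pair, fell in iR_KOA (-0.15 and -0.17), and both calls were lost without exposed replicate 2 or unexposed replicate 3. PSME2 there read 86.6, 84.9 and 91.4 FPKM unexposed and 81.8, 70.3 and 81.3 exposed, with exposed replicate 2 lowest. PSMF1, an inhibitor of the core, rose slightly in iR_KOA, from 21.6, 21.5 and 21.4 FPKM to 22.9, 22.6 and 22.9 (0.08, limma adjusted p = 0.0488), a call that 8 of 12 alternatives lost.

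Where exposure effects were compared between backgrounds, only 2 members passed. The effect on PSME3 was 0.16 higher in iR_KOA than in KOA (SE 0.05, limma adjusted p = 0.045), when 5.08% of all genes passed that test. The effect on PSMA4 was 0.26 higher with D3 than without in iR_KOA (SE 0.07, limma adjusted p = 0.0415; background 4.14%). For genotype in iR, genotype with D3, and D3 in iR_WTA, 0 members passed limma's test (background 0.538%, 2.38% and 1.67%). At an unadjusted p below 0.05 there were 4, 3 and 2 members, and the share of all genes at that threshold was not counted. For PSMC5 the differences between backgrounds were 0.01 to 0.06 (SE 0.05).

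Genes that act around the proteasome were counted from lists. NFE2L2, a transcription factor that also acts on antioxidant response elements, rose in all 5 backgrounds, by 1.15, 0.55, 1.04, 0.38 and 0.86. Its group means went from 26.2, 31.2, 27.3, 21.8 and 20.2 FPKM to 59.6, 46.2, 57.2, 28.7 and 37.4. NFE2L1 was slightly lower, with differences of -0.06, -0.13, -0.12, -0.09 and -0.08, and passed in iR_KOA and iR_KOA_D3. HSF1, the heat shock factor, passed in none. Among 16 regulators of proteasome genes, 6, 3, 6, 3 and 4 rose (37.5%, 18.75%, 37.5%, 18.75% and 25.0%) and 2, 2, 3, 1 and 2 fell (12.5%, 12.5%, 18.75%, 6.25% and 12.5%), where 18.8%, 13.1%, 17.3%, 11.4% and 15.3% of all genes rose and 22.7%, 22.3%, 27.8%, 17.2% and 26.5% fell. MAFK and MAFG, partners of both NFE2L factors, rose in all 5, and KEAP1 fell in the 3 knockout backgrounds (-0.33, -0.26 and -0.32). Whether KEAP1 restrains NFE2L2 in these cells was not tested.

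Among 19 factors that bind proteasomes, 4, 6, 7, 4 and 5 rose and 4, 2, 6, 3 and 4 fell, which is 21.05% to 36.84% higher and 10.53% to 31.58% lower, against 11.4% to 18.8% and 17.2% to 27.8% of all genes. ZFAND2A, an arsenite-inducible proteasome adaptor, rose most, by 1.57, 0.74, 0.76, 0.93 and 0.86, and AKIRIN2, which carries proteasomes into the nucleus (0.16 to 0.61), and the shuttle factors UBQLN2 (0.18 to 0.32) and UBQLN1 (0.18 to 0.28) rose as well. ADRM1, a ubiquitin receptor of the 19S particle, fell in the 3 knockout backgrounds. Of 17 ubiquitin and p97 genes, 3, 2, 1, 2 and 1 rose and 4, 5, 5, 3 and 3 fell (5.88% to 17.65% higher and 17.65% to 29.41% lower, against 11.4% to 18.8% and 17.2% to 27.8% of all genes). SYVN1, a ubiquitin ligase of the endoplasmic reticulum, rose in all 5, and the p97 cofactors NPLOC4 and NSFL1C fell in all 5. Of 15 interferon and peptide-loading genes, 1, 0, 0, 0 and 0 rose and 1, 7, 6, 3 and 6 fell (6.67%, 46.67%, 40%, 20% and 40% lower, against 22.7%, 22.3%, 27.8%, 17.2% and 26.5% of all genes), with NLRC5, the activator of class I genes, lower in every background (-0.26 to -0.34).

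Promoter letters were read for the 44 members with a window of 250 bases before a RefSeq start (GRCh38.p14). The core TGACNNNGC of the antioxidant response element, on either strand, occurred in 11 of them (25.0%), beside 12.28% of the 9705 tested genes with a window. CCAAT, the NF-Y box, occurred in 20 (45.45%, against 35.26%), and CCGGAA, an ETS core, in 16 (36.36%, against 26.01%). Unlike the background, the members with a window were not limited to tested rows. The NF-Y matches include PSMB11, which was not tested, and PSMC3IP and PSME3IP1, which are no components. The ETS matches include PSMG4, which was not tested. For PSMC2, PSMD6 and PSMG4 the start used for the window lay within the annotated gene span, and so did their matches. GAANNTTC, a heat shock core, occurred in 1, PSMC3IP (2.27%, against 3.93%). A match is a description of letters, not a site of binding. The stretches below, 5′ to 3′ on the gene's strand with the match in capitals, belong to the genes that fell in all 5 backgrounds and to PSMD10, which did not fall; of the motifs searched, none was found in all 4 windows of the former. PSMC5 and PSMD10, which moved oppositely, both held an NF-Y box and an ETS core. The coordinates are PSMD5 chr9:120843018-120843086 (minus strand), PSMD9 chr12:121888658-121888726 (plus), PSMC5 chr17:63827360-63827425 (plus), PSMD7 chr16:74296586-74296650 (plus) and PSMD10 chrX:108091659-108091724 (minus), all upstream of the annotated start.
PSMD5, antioxidant core: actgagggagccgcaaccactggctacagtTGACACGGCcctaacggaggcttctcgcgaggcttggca
PSMD9, antioxidant core: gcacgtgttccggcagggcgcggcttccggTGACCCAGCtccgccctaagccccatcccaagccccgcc
PSMC5, ETS core: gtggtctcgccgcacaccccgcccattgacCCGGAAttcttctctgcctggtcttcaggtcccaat
PSMD7, NF-Y box: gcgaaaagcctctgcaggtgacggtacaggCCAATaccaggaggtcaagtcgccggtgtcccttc
PSMD10, ETS core: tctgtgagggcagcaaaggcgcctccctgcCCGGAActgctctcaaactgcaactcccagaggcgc

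The next question was how D3 changed the genes in unexposed cells. These comparisons, and those of genotype and iR that follow, share unexposed libraries with each other and with the exposure comparisons. In wild-type iR cells 41 of 48 members fell with D3 and 3 rose, when 26.3% of all genes fell and 22.3% rose. In knockout iR cells 43 fell and 0 rose (background 34.5% and 19.2%). At an unadjusted p below 0.05, 0 were higher, and the share of all genes at that threshold was not counted. The median member difference was -0.25 and -0.33, beside -0.01 and -0.06 over all genes. The fall covered the 19S particle and nearly all of the standard core. All 17 genes of the 19S particle fell in both genotypes, as did 13 and 14 of the 14 alpha and standard beta genes. Of the 4 activators 2 and 3 fell, and of the 3 immunoproteasome subunits 0 fell in either genotype. In all, 40 members fell in both (83.3% of 48, where 21.3% of all genes did). Leaving out single libraries gave 38 to 41 and 41 to 43 lower members, and quantile normalization 34 and 39. Mitochondrial transcripts moved too, from 20.1% to 22.2% of FPKM in iR_WTA_NE to 22.5% to 23.4% in iR_WTA_D3_NE, and from 24.3% to 24.9% in iR_KOA_NE to 28.5% to 30.8% in iR_KOA_D3_NE, and their part in the fall was not tested.

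The 19S sum of FPKM went from 1317 ± 32.6 in iR_WTA_NE to 1048 ± 0.20 in iR_WTA_D3_NE and from 1195 ± 10.8 in iR_KOA_NE to 923 ± 16.7 in iR_KOA_D3_NE (SD, n = 3 each). PSMC3, a base ATPase, fell in both genotypes. It read 94.0, 86.4 and 90.2 FPKM in iR_WTA_NE and 64.9, 62.9 and 64.4 in iR_WTA_D3_NE, and 62.5, 64.1 and 67.0 in iR_KOA_NE and 40.2, 40.3 and 38.2 in iR_KOA_D3_NE. It fell by 0.49 and 0.69 (SE 0.06 each, limma adjusted p = 9.31e-07 and 1.73e-09), with all D3 libraries lower. PSMG1, a chaperone of alpha-ring assembly, read 25.3, 26.1 and 26.1 FPKM and then 16.7, 18.4 and 18.6 in wild-type cells, and 20.2, 19.7 and 17.9 and then 11.3, 11.4 and 11.0 in knockout cells. Its falls were 0.51 and 0.73 (SE 0.05 each, limma adjusted p = 1.4e-08 and 1.08e-11). PSMC5 fell by 0.46 and 0.41, and PSMD14 by 0.35 and 0.57. PSMC3IP, which is no proteasome component, fell most, by 0.86 and 1.5, in the knockout from 8.45 to 9.72 FPKM to 1.99 to 3.13 FPKM.

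The 3 members that rose did so in wild-type cells and are inducible genes, but not every inducible member rose. PSMB10 and PSME2 did not pass in wild-type cells. Their group means went from 18.9 to 18.5 FPKM and from 98.3 to 94.2 FPKM with D3 in those cells. There PSMB8 rose from 14.0, 11.8 and 13.0 FPKM to 16.6, 14.9 and 16.3 with D3 (0.28, SE 0.08, limma adjusted p = 0.00326), and PSME1 rose from 105, 96.1 and 101 FPKM to 114, 122 and 113 (0.21, SE 0.06, limma adjusted p = 0.00535). PSMB9 rose from 4.67, 4.65 and 4.71 FPKM to 5.94, 6.14 and 5.99 (0.31, limma adjusted p = 0.0466), a call that 9 of 12 alternatives lost. In knockout cells PSMB8 (0.10), PSMB9 (-0.21) and PSMB10 (-0.11) did not pass. Whether D3 acted differently in the 2 genotypes was not tested. PSME1 and PSME2 form 1 activator ring and lie 4402 bases apart on chromosome 14 (RefSeq GRCh38.p14), but their ratio moved: 1.03 ± 0.021 in iR_WTA_NE and 1.23 ± 0.084 in iR_WTA_D3_NE, and 1.01 ± 0.025 in iR_KOA_NE and 1.46 ± 0.064 in iR_KOA_D3_NE (SD, n = 3 each). In the knockout PSME2 fell with D3 (-0.45), from 86.6, 84.9 and 91.4 FPKM to 66.3, 63.8 and 61.7. Of the 15 interferon and peptide-loading genes 7 rose with D3 in each genotype, while 1 fell in wild-type and 4 in knockout cells. These are 46.67% higher and 6.67% lower in wild-type cells (all genes 22.3% and 26.3%) and 46.67% and 26.67% in knockout cells (all genes 19.2% and 34.5%). Those that rose in both included HLA-E (0.37 and 0.60), HLA-C (0.32 and 0.47) and the peptide-loading factor TAPBP (0.55 and 0.17).

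Factors that bind proteasomes were mostly lower with D3. Of the 19 bound factors, 11 fell and 1 rose in wild-type cells (57.89% and 5.26%, against 26.3% and 22.3% of all genes). In knockout cells 14 fell and 0 rose (73.68% and 0%, against 34.5% and 19.2% of all genes). The deubiquitinase UCHL5 led the falls (-0.47 and -0.65), with USP14 at -0.21 and -0.35 and ADRM1 at -0.30 and -0.34. NFE2L1 passed in neither genotype (0.08 and -0.07), nor did HSF1 (-0.05 and -0.01), and NFE2L2 fell in knockout cells (-0.19).

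**Figure D4:**
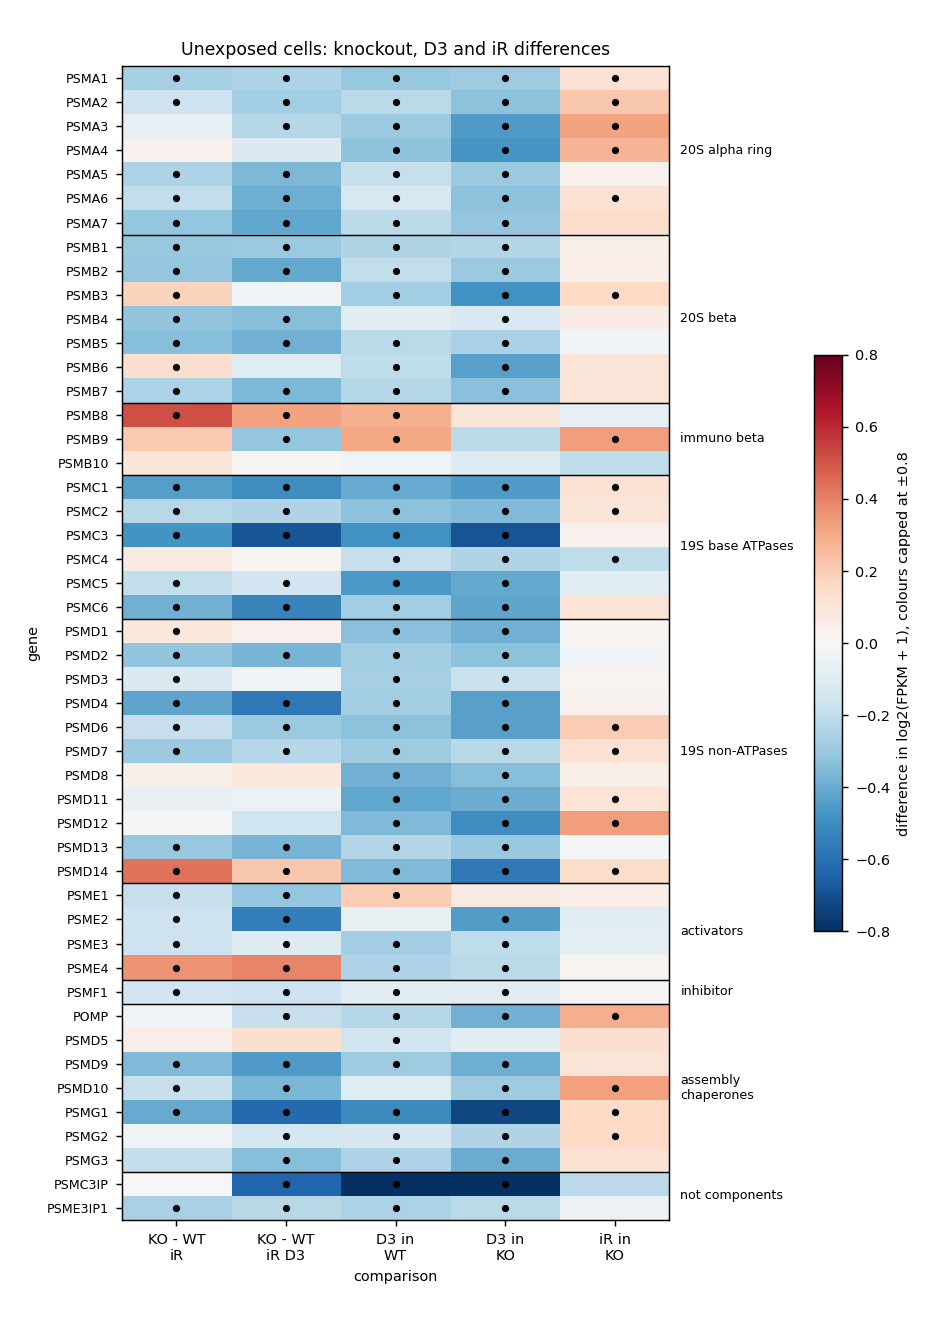
Differences in log2(FPKM + 1) among unexposed cells for the 48 tested rows (vertical axis, grouped by role): knockout minus wild type in iR and in iR D3, D3 in wild-type and in knockout iR cells, and iR in knockout cells; dots mark genes past the test and colours are capped. The D3 columns are blue in all 17 rows of the 19S particle, and PSMB8, PSMD14 and PSME4 are red against a mostly blue field in the genotype columns.

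Knockout cells were compared with wild-type cells in the unexposed iR groups. Without D3, 29 members were lower in the knockout and 6 higher (background 37.4% and 27.9%). With D3, 34 were lower and 3 higher (background 44.3% and 24.8%); median-of-ratios scaling turned the latter into 27 and 7. Lower in both were 28 of 48 members, where 33.3% of all genes were. Mitochondrial transcripts also differed, at 24.3% to 24.9% of FPKM in iR_KOA_NE against 20.1% to 22.2% in iR_WTA_NE, and at 28.5% to 30.8% in iR_KOA_D3_NE against 22.5% to 23.4% in iR_WTA_D3_NE, and their part in these counts was not tested. Among the ATPases, PSMC3 was lower by 0.48 and 0.68, PSMC1 by 0.44 and 0.49 and PSMC6 by 0.39 and 0.53. The ubiquitin receptor PSMD4 was lower by 0.42 and 0.57, and PSMG1 by 0.41 and 0.62. Among the catalytic subunits PSMB5 was lower in the knockout by 0.34 and 0.39 and PSMB7 by 0.25 and 0.36, while PSMB6 was higher without D3 (0.13), a call lost without iR_KOA_NE replicate 3 or iR_WTA_NE replicate 2. PSMB5 read 115, 111 and 121 FPKM in iR_KOA_NE and 152, 138 and 152 in iR_WTA_NE.

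Higher in the knockout both without and with D3 were 3 of 48 members, PSMB8, PSMD14 and PSME4, where 21.2% of all genes were. PSMB8 read 18.3, 19.1 and 19.1 FPKM in iR_KOA_NE and 14.0, 11.8 and 13.0 in iR_WTA_NE, a difference of 0.51 (SE 0.08, limma adjusted p = 2.08e-06), and 0.32 with D3 (limma adjusted p = 0.000585). PSMD14, the deubiquitinase of the lid, read 110, 104 and 91.3 FPKM in iR_KOA_NE and 71.6, 77.2 and 75.6 in iR_WTA_NE (0.43, SE 0.06, limma adjusted p = 2.6e-07), and 0.22 with D3. PSME4 read 22.7, 21.7 and 21.7 FPKM against 17.5, 17.3 and 16.2 (0.36, SE 0.05, limma adjusted p = 2.38e-07), and 0.39 with D3. The groups did not overlap for any of the 3, with or without D3. Partners within complexes differed: PSMD14 over PSMD7, which pair in the lid, was 1.22 ± 0.094 in iR_KOA_NE and 0.733 ± 0.034 in iR_WTA_NE, and PSMB8 over PSMB5 was 0.163 ± 0.0079 and 0.0879 ± 0.0039 (SD, n = 3 each). These ratios are unaffected by scaling between libraries.

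**Figure D5:**
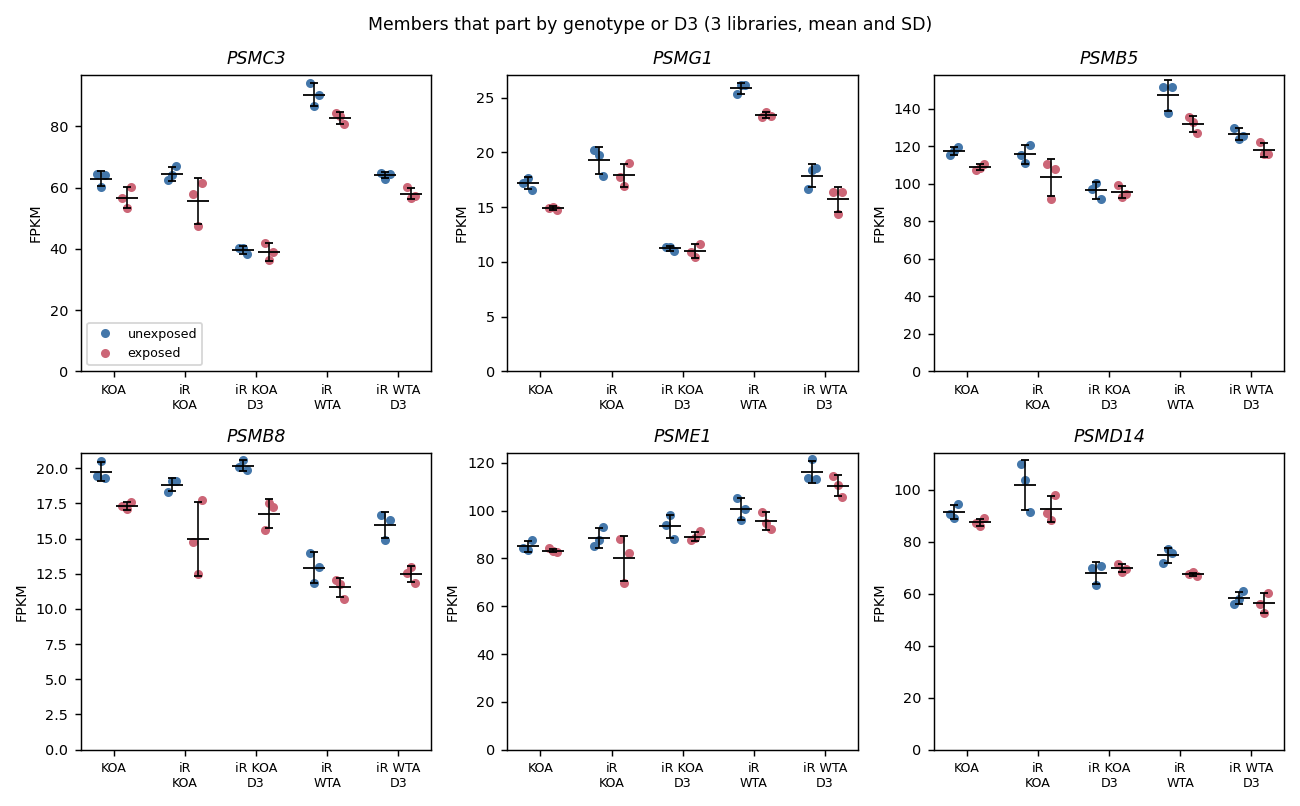
FPKM of 6 members in each library (points), with the group mean and SD (bars), in unexposed (blue) and exposed (red) cells of 5 backgrounds; each vertical axis starts at 0. PSMC3, PSMG1 and PSMB5 are highest in iR_WTA and lowest in iR_KOA_D3, PSMB8 and PSMD14 are higher in knockout than in wild-type iR cells, and PSME1 is highest in iR_WTA_D3.

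Of the 15 interferon and peptide-loading genes 7 were higher and 2 lower in the knockout without D3, and 9 and 5 with D3. Over all genes 27.9% were higher and 37.4% lower without D3, and 24.8% and 44.3% with D3. HLA-B (0.70 and 1.29) and HLA-C (0.96 and 1.12) led, both presenting the peptides that proteasomes make, whereas the transporter subunit TAP2 was lower (-0.40 and -0.53). NFE2L2 was higher by 0.50 and 0.42, HSF1 lower by 0.40 and 0.36, and NFE2L1 higher without D3 only (0.10). Each of these passed limma's test.

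Finally, iR was compared with its absence in unexposed knockout cells. Here 18 members were higher with iR and 1 lower (background 18.7% and 19.8%), with a median member difference of 0.10 beside -0.00 over all genes. Mitochondrial transcripts were 24.3% to 24.9% of FPKM in iR_KOA_NE and 27.2% to 29.7% in KOA_NE, and their part in this was not tested. Leaving out iR_KOA_NE replicate 1 gave 8 higher members and leaving out KOA_NE replicate 1 gave 10, and quantile normalization gave 10 higher and 5 lower. Those higher included 5 of the 7 alpha subunits, led by PSMA3 (0.32) and PSMA4 (0.27), and the core's maturation factor POMP (0.29). PSMD10 rose by 0.33 (SE 0.05, limma adjusted p = 2.85e-05), from 38.5, 37.8 and 37.5 FPKM in KOA_NE to 49.3, 50.4 and 43.9 in iR_KOA_NE. PSMD12, a lid subunit, rose by 0.34, from 19.9, 20.5 and 19.3 FPKM to 27.6, 27.6 and 21.3. PSMC4, a base ATPase, was the 1 that fell (-0.20, limma adjusted p = 0.000771). RSRP1 itself was 1.34 higher in iR_KOA_NE than in KOA_NE, at 7.45 to 7.95 against 2.12 to 2.70 FPKM, though far below the wild type.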

How the data were processed

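Total RNA of 30 A549 libraries was oligo(dT)-enriched and sequenced, per the labels' protocols. Per the submitters' processing notes, fastp, HISAT2 and HTSeq were used with GRCh38; their versions, the annotation, the strand setting and gene lengths are not stated. The authors' deposited table holds FPKM values, of which 6 columns fit none of the samples and were set aside. Steps between low FPKM values gave whole reads within 0.01 for all 26801 genes, hence the depths. FPKM removes depth and length but not composition.

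Values were tested as log2(FPKM + 1) over the 12086 genes that reached 1 FPKM in 3 or more libraries, with limma 3.58.1 in R 4.3.3 (trend, all 10 groups, 20 residual degrees of freedom, two-sided, Benjamini-Hochberg within each of 15 comparisons, threshold 0.05). On data simulated for the exposure in KOA (12086 genes), 39 of 50 genes changed 1.25-fold and 47 of 50 changed 1.5-fold were recovered, with 8 false calls. Most exposure differences of the members were smaller than 1.25-fold, and recovery of such changes was not simulated. Same-numbered replicates had correlated deviations above 0.1 for all 3 numbers only in the exposure of iR_KOA_D3 (0.115, 0.156 and 0.168, a hint from the data). A block on the number left the counts there at 2 and 12. Some single correlations were larger elsewhere. They were -0.09, 0.267 and 0.306 for the exposure in iR_WTA_D3, and -0.154, 0.277 and 0.268 for genotype in unexposed iR.

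Members and lists were chosen with earlier results of these data known. Members given by library are those with the largest absolute exposure difference in each subgroup (up to 2), plus the 6 catalytic subunits; PSMD5, PSMG1, PSMD14, PSME1, PSME4 and PSMD12 were added after their values were seen. From each list up to 4 of the largest changes were named, plus NFE2L1, NFE2L2 and HSF1; KEAP1, ADRM1, USP14, HLA-E, HLA-C and TAPBP were chosen after their values were seen. Alternatives were another pseudocount (0.1), no filter, median-of-ratios scaling, quantile normalization, only the compared groups, a replicate block, and each library left out. Promoter windows came from RefSeq (GRCh38.p14) tables; positions use that annotation.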

Additional observations from a re-analysis of the deposited data

Results flagged for a closer look

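Both results below were picked out because the exposure effect differed between backgrounds by a test of the difference itself. PSME3 showed an exposure effect 0.1557 higher (log2 scale) in iR_KOA than in KOA; its libraries were apart in KOA and overlapped in iR_KOA. Of the 18 alternatives, 7 kept that call, with adjusted p from 0.00619 to 0.123. For PSMA4 the effect was 0.258 higher in iR_KOA_D3 than in iR_KOA; 40.5 to 42.1 FPKM became 42.2 to 44.2 with D3, and 54.2 to 59.9 became 46.9 to 55.2 without. There 6 of 18 alternatives kept the call, with adjusted p from 0.00946 to 0.136.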

How the results depend on the processing

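None of 3144 alternative values of the 261 calls reversed (0 in all). Calls kept under every alternative were 10 of 15, 5 of 23, 6 of 14, 4 of 17 and 5 of 12 for the exposures in KOA, iR_KOA, iR_KOA_D3, iR_WTA and iR_WTA_D3, 29 of 35 and 30 of 37 for genotype without and with D3, 36 of 44 and 39 of 43 for D3 in wild-type and knockout cells, and 8 of 19 for iR.
Counts of members that moved by over 1.5 times were these. For exposure in iR_KOA, the 1 higher became 2 under median-of-ratios scaling and quantile normalization and 0 with the replicate block or only the compared groups, and the 22 lower became 14 under median-of-ratios scaling and 5 with only the compared groups. For exposure in iR_KOA_D3, the 2 higher became 1 with no filter, 4 under median-of-ratios scaling and 6 with only the compared groups. In iR_WTA the 17 lower became 10 under quantile normalization. In iR_WTA_D3 the 0 higher became 1 under median-of-ratios scaling, and the 12 lower became 19 under quantile normalization and 7 with only the compared groups. The 3 higher by genotype with D3 became 7 (median-of-ratios), 6 (quantile) and 5 (only the compared groups). The 0 higher with D3 in knockout cells became 2 under median-of-ratios scaling and quantile normalization. For iR, the 18 higher became 10 and the 1 lower became 5 under quantile normalization, and the latter 3 with only the compared groups. The PSME3 count of 1 became 2 under quantile normalization and 0 with the block or only the compared groups, and the PSMA4 count of 1 became 0 with no filter, quantile normalization or only the compared groups.

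Leaving out single libraries gave, for exposure, 0 to 1 higher and 12 to 30 lower in iR_KOA, 1 to 3 and 6 to 12 in iR_KOA_D3, 10 to 14 lower in iR_WTA and 0 to 1 higher in iR_WTA_D3. It gave 8 to 15 higher and 1 to 3 lower for iR, 0 to 1 in each direction for the difference by iR, and 0 to 6 for the difference by D3 in iR_KOA. The replicate block gave 1 higher and 16 lower in KOA, 0 and 23 in iR_KOA, and 43 lower with D3 in knockout cells. Precision is limited by 3 libraries a group; PSMB9, with as few as 115 reads, is the least precise.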
